A study of Mus musculus with 2 samples.

Results

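The 39 genes described here encode proteins of DNA replication and S phase, the stage of the cell cycle in which the genome is copied. They were taken by symbol from the 32285 features of the deposited tables, and all 39 were found. They were followed with droplet single-cell RNA sequencing of uteri from female mice at gestational day 3.5, shortly before the embryo implants. The control library carried floxed Mig-6 alleles and no Cre (Mig-6f/f). The other library is labelled knockout and carried the same floxed alleles and Cre at 1 allele of the progesterone receptor gene (Pgrcre/+Mig-6f/f). Mig-6 is the protein of Errfi1, and this Cre acts in cells that have expressed the progesterone receptor, Pgr. The sources used here give neither the age of the mice nor how many were pooled for a library.

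Before a cell divides it must license origins, unwind DNA and copy it. Origin recognition proteins, Cdc6 and Cdt1 load the Mcm2 to Mcm7 ring, and Cdc45 and the GINS proteins turn that ring into a working helicase. Polymerase alpha with primase starts each strand, polymerases delta and epsilon extend it on the Pcna clamp that the RFC proteins load, and Fen1 and Lig1 join the pieces of the lagging strand. E2F factors and cyclin E drive the entry into S phase and many of these genes. In the mouse uterus before implantation, luminal epithelium proliferates under estrogen and stops under progesterone, while the stroma beneath it begins to divide.

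Barcodes were sorted by marker genes into 4 classes. Luminal barcodes had at least 10 UMIs (unique molecular identifiers, each 1 captured transcript) per 10000 from Epcam, Krt8, Krt18 and Cldn7, and under 10 from the gland genes Prss29, Prss28, Spink1 and Cxcl15. Glandular barcodes had at least 10 from both sets, stromal barcodes at least 10 from Dcn, Col1a2 and Col3a1, and other barcodes met no gate. The control gave 620 luminal, 102 glandular, 3221 stromal and 334 other barcodes, and the library labelled knockout gave 1321, 98, 1049 and 404. Another 26 and 9 barcodes met an epithelial and the stromal gate and were kept apart. Marker lists apart from the gates were highest in the class they name. All 10 luminal markers had UMIs in luminal barcodes of both libraries (sums of 2377 and 2717 CPM, that is UMIs per 1000000 of the class), against 9.62 and 29.7 CPM in stroma. The 10 stromal markers summed to 2625 and 3007 CPM in stroma and to 16.8 and 19.7 CPM in luminal barcodes. Glandular from luminal and other from stromal barcodes parted less. The luminal markers summed to 1202 and 1493 CPM in glands. The stromal markers summed to 1351 and 1319 CPM in other barcodes, with Vim the highest (924 and 706 CPM). The 10 immune markers summed to 4363 and 3874 CPM in other barcodes, to 15.8 and 32.4 CPM in luminal barcodes and to 7.73 and 12.9 CPM in stroma. The glandular list, which shares 4 genes with the gate, summed to 22400 and 10043 CPM in glands.

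Each group was 1 library, so no difference below has a replicate check and none was tested. Intervals are 95% and cover counting error only. The control was the deeper library, with median UMIs per barcode of 12074 against 9845 in luminal, 10680 against 5871 in glandular, 8889 against 3637 in stromal and 5774 against 2051 in other barcodes. The libraries shared 3 barcode sequences. Errfi1, which checks the labels, was 540.4 and 509 CPM in luminal barcodes but 197 and 733 CPM in stroma, 3.72-fold higher (3.56 to 3.89) in the library labelled knockout. In other barcodes it was 120.3 and 456 CPM, 3.79-fold higher (3.24 to 4.43), and in glands 833 and 589.6 CPM. It therefore went against the label in stroma and other barcodes and was lower with the label in glands, and every direction is one between these libraries. The sources used here do not say which part of Errfi1 is deleted. Pgr itself was 46.1 and 59.1 CPM in luminal barcodes and 238 and 395 CPM in stroma, higher in the library labelled knockout in both.

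The replication genes were lower in luminal and stromal barcodes of the library labelled knockout and level in glands. Summed over the 39 members, luminal barcodes held 806 CPM (788 to 824) in the control and 306 CPM (298 to 315) in the library labelled knockout, 2.63-fold lower (2.54 to 2.73). Stromal barcodes held 741 CPM (731 to 751) and 294 CPM (277 to 311), 2.52-fold lower (2.38 to 2.68). Glandular barcodes held 308 CPM in both (278 to 340 and 270 to 351), a ratio of 1.00 (0.846 to 1.18). Other barcodes, mainly immune, endothelial and muscle cells, held the highest level in each library, at 1308 CPM (1260 to 1356) and 692 CPM (640 to 747), 1.89-fold lower (1.74 to 2.06).

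**Figure D1:**
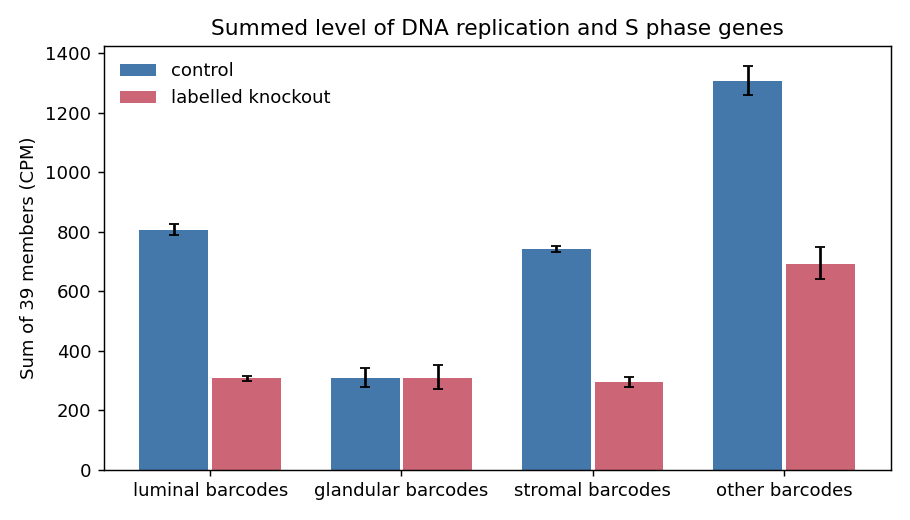
Summed level of the 39 members in CPM (bars, from 0) for each class of barcodes in the control and the library labelled knockout, with exact Poisson 95% intervals. The luminal, glandular and stromal bars of the library labelled knockout (306, 308 and 294 CPM) have overlapping intervals, at the level of the control's glands (308 CPM).

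The order of the classes therefore differed between the libraries. In the control the order was other, luminal, stromal and glandular, with luminal 1.09 times stroma (1.06 to 1.12) and 2.62 times glands (2.36 to 2.90). In the library labelled knockout the luminal, stromal and glandular intervals overlapped, with luminal 1.04 times stroma (0.978 to 1.11) and 0.993 times glands (0.869 to 1.14). Luminal levels in the control were past 2-fold above glandular ones for 28 of 38 measured members and past 2-fold below for 0, with a median log2 ratio of 1.52. In the library labelled knockout 8 of 33 were higher and 7 lower, with a median of 0.01. The shares of all features past 2-fold between luminal and glandular barcodes were not counted, so these counts have no background beside them.

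By gene, all 39 members were measured in luminal barcodes, with at least 20 UMIs over both libraries. There 33 of the 39 were at least 2-fold lower in the library labelled knockout and 0 higher, where 14.7% of all 13092 features measured were that much lower and 5.64% higher. The median log2 ratio was -1.69 over the members and -0.16 over all features. In stroma 32 of the 39 were at least 2-fold lower and 0 higher, against 12.9% and 5.48% of 14462 features, with medians of -1.63 and -0.05. Mcm10 had no UMI in stroma of the library labelled knockout, and with it set at a floor of 3 counts the stromal median was -1.60. The interval lay below a ratio of 1 for all 39 members in luminal barcodes and for 36 of 39 in stroma. The share of all features with such an interval was not counted. By direction alone, 62.1% of all luminal and 54.4% of all stromal features measured were below the control.

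**Figure D2:**
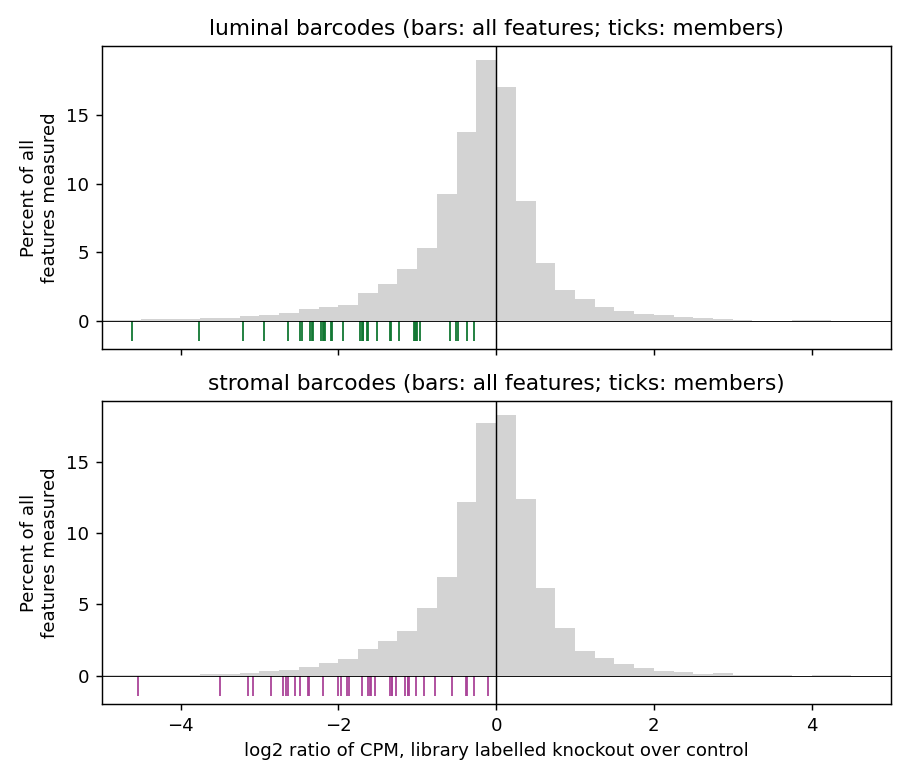
Percent of all measured features (grey bars, over 13092 features in luminal and 14462 in stromal barcodes) by log2 ratio of the library labelled knockout over the control, with each member as a tick; features at 0 in a library are not drawn. All ticks lie below 0 in both classes, as do 62.1% of all luminal and 54.4% of all stromal features measured. At or below -1 lie 33 luminal and 31 stromal ticks. Stromal Mcm10, listed at 0 in the library labelled knockout, has no tick.

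The helicase and its loaders stood lower in the library labelled knockout in both cell types. The 15 genes summed to 278 and 78.7 CPM in luminal barcodes and to 232 and 69.6 CPM in stroma, with 14 and 13 of 15 at least 2-fold lower. Within the Mcm ring, luminal Mcm5 was 27.3 CPM in control barcodes and 3.53 CPM in those labelled knockout, 7.71-fold lower (5.79 to 10.4). Mcm3 was 49.3 and 9.83 CPM, 5.02-fold lower (4.19 to 6.03), and Mcm7 20.7 and 4.55 CPM, 4.56-fold lower. Mcm6 (33.9 and 8.81 CPM), Mcm4 (29.6 and 8.93 CPM) and Mcm2 (26.8 and 11.4 CPM) were 3.85-fold, 3.32-fold and 2.36-fold lower. The 6 ring subunits work at equal numbers in 1 complex, and their transcripts were lower by different factors, with Mcm2 (1.94 to 2.86) clear of Mcm5.

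In stroma the ring subunits stood in another order by fold, but the intervals of all of them overlapped, so that order is not resolved. Mcm6 was 27.0 and 3.05 CPM, 8.87-fold lower (5.05 to 17.2), and Mcm2 was 19.3 and 2.28 CPM, 8.44-fold lower (4.41 to 18.6). Both intervals lay above those of the same genes in luminal barcodes. Mcm5 (19.4 and 3.05 CPM), Mcm3 (26.3 and 5.08 CPM), Mcm7 (27.5 and 6.85 CPM) and Mcm4 (28.8 and 7.36 CPM) were 6.36-fold, 5.19-fold, 4.01-fold and 3.91-fold lower. Stromal counts in the library labelled knockout were small, at 9 UMIs for Mcm2 and 12 for Mcm6.

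Among the proteins that activate the ring, the GINS subunit Gins2 was 14.6 and 1.08 CPM in luminal barcodes, 13.6-fold lower (8.28 to 23.6), but 9.25 and 2.54 CPM in stroma, 3.64-fold lower (1.95 to 7.68). Its partners Gins1 and Gins3 were 4.25-fold and 3.21-fold lower in luminal barcodes. In stroma Gins1 was 3.09-fold lower, while Gins3 was 2.98 and 2.03 CPM with an interval that included 1 (0.713 to 3.51). Cdc45, which rides with GINS on the helicase, was 5.48-fold lower in luminal barcodes and 5.61-fold lower in stroma. Mcm10, which helps to activate the helicase, was 4.28 and 1.498 CPM in luminal barcodes, 2.86-fold lower. In stroma Mcm10 had 57 UMIs in the control and 0 in the library labelled knockout, 2.54-fold lower with a floor of 3 counts in place of 0. The counting interval of its fold started lower, at 1.996.

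Of the origin proteins, Cdc6 was 6.20 and 1.92 CPM in luminal barcodes, 3.23-fold lower (2.07 to 5.15), and 5.76 and 0.508 CPM in stroma, on 2 UMIs in the library labelled knockout, a fold of 11.3 (3.09 to 94.4). Its partner Cdt1 was 3.23-fold lower in luminal barcodes and 3.03-fold lower in stroma. Orc1, the ATPase of the origin recognition complex, was 2.06-fold and 2.54-fold lower. Orc6, another subunit of that complex, was 33.7 and 17.3 CPM in luminal barcodes and 36.6 and 28.4 CPM in stroma, within 2-fold in each (1.95-fold and 1.29-fold lower).

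**Figure D3:**
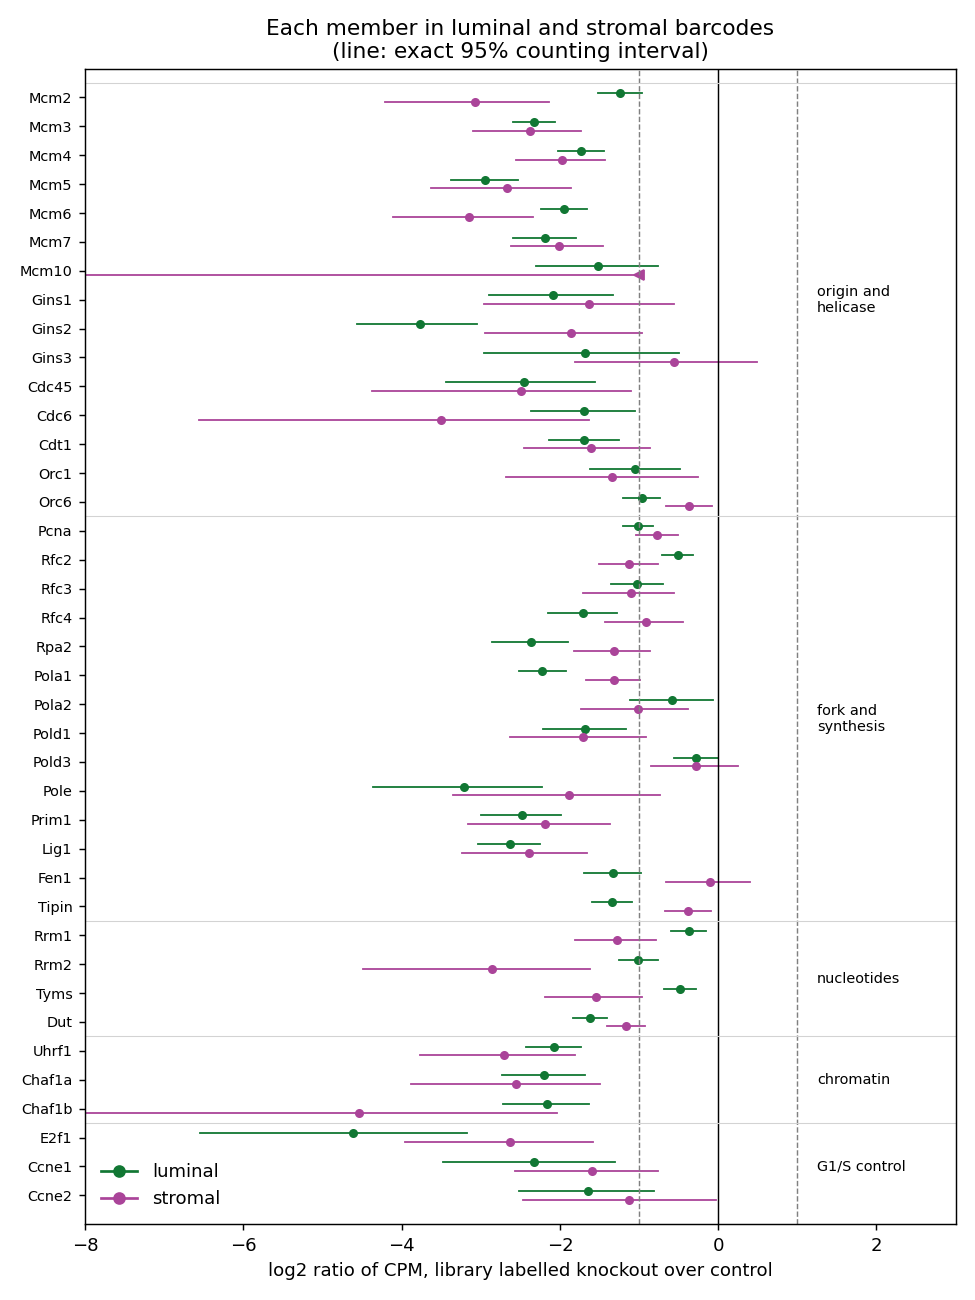
log2 ratio of CPM (library labelled knockout over control) for each member in luminal and stromal barcodes, ordered by role, with exact 95% counting intervals cut at -8; dashed lines mark 2-fold. E2f1, Gins2 and Pole in luminal barcodes and Chaf1b, Cdc6, Mcm6 and Mcm2 in stroma lie farthest to the left, and the arrowhead is the upper end of the 95% counting interval for stromal Mcm10, which has no UMI in the library labelled knockout.

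The 14 genes of the replication fork summed to 312 and 130 CPM in luminal barcodes and to 316 and 157 CPM in stroma, and 11 and 9 of them were at least 2-fold lower. In stroma thinned to 2000 UMIs per barcode all 14 were still measured, and 5 were at least 2-fold lower, with a median log2 ratio of -0.70 in place of -1.11. Of all 11624 features measured in the thinned stroma, 1126 were at least 2-fold lower. The polymerases differed among themselves. The catalytic subunits Pole and Pold1 were 9.28-fold (4.67 to 20.5) and 3.21-fold lower in luminal barcodes and 3.69-fold and 3.25-fold lower in stroma. Pola1, the catalytic subunit of polymerase alpha, was 36.9 and 7.91 CPM, 4.66-fold lower (3.81 to 5.74), in luminal barcodes, and 48.9 and 19.5 CPM, 2.50-fold lower (1.99 to 3.19), in stroma. Its accessory subunit Pola2 was 6.31 and 4.19 CPM in luminal barcodes, within 2-fold, and 2.02-fold lower in stroma. Pold3, an accessory subunit of polymerase delta, was 19.99 and 16.5 CPM in luminal and 9.83 and 8.12 CPM in stromal barcodes. Pold3 was thus 1.21-fold lower in each, with intervals that reached 1.00 and 0.838. Prim1, the catalytic primase subunit, was 5.59-fold and 4.57-fold lower.

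The clamp and the subunits of its loader differed among themselves. Pcna, the sliding clamp, was 52.8 and 26.1 CPM in luminal barcodes, 2.02-fold lower (1.77 to 2.31), and 54.5 and 32.0 CPM in stroma, 1.70-fold lower (1.42 to 2.06). Of the clamp loader subunits, Rfc2 was 40.8 and 28.6 CPM in luminal barcodes, 1.43-fold lower, and 2.18-fold lower in stroma. Rfc3 was 2.03-fold and 2.15-fold lower, and Rfc4 was 3.26-fold lower in luminal barcodes and 1.89-fold lower in stroma. Rpa2, which coats single-stranded DNA, was 15.7 and 3.06 CPM in luminal barcodes, 5.14-fold lower (3.72 to 7.22), but 24.7 and 9.90 CPM in stroma, 2.50-fold lower (1.81 to 3.54).

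The enzymes that finish the lagging strand parted in stroma. Lig1, the ligase, was 26.4 and 4.25 CPM in luminal barcodes, 6.21-fold lower (4.75 to 8.20), and 5.24-fold lower (3.15 to 9.42) in stroma. Fen1, the flap nuclease, was 16.9 and 6.71 CPM in luminal barcodes, 2.52-fold lower (1.96 to 3.24). In stroma Fen1 was 9.56 and 8.89 CPM, and the interval of its fold included 1 (0.755 to 1.58). Tipin, a protein that steadies the fork, was 34.1 and 13.5 CPM in luminal barcodes, 2.53-fold lower, and 36.6 and 28.2 CPM in stroma, 1.30-fold lower.

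The 4 genes of nucleotide supply summed to 154 and 84.1 CPM in luminal barcodes and to 137 and 55.6 CPM in stroma, with 2 and 4 of them at least 2-fold lower. Rrm1, the large subunit of ribonucleotide reductase, was 30.6 and 23.6 CPM in luminal barcodes, 1.30-fold lower (1.11 to 1.51), but 21.5 and 8.89 CPM in stroma, 2.42-fold lower (1.72 to 3.50). Tyms, thymidylate synthase, was 38.2 and 27.4 CPM in luminal barcodes, 1.39-fold lower (1.21 to 1.60), but 18.5 and 6.35 CPM in stroma, 2.91-fold lower (1.95 to 4.54). Rrm2, the small reductase subunit that is made in S phase, was 31.3 and 15.6 CPM in luminal barcodes, 2.01-fold lower (1.70 to 2.39), but 9.18 and 1.27 CPM in stroma, 7.23-fold lower (3.06 to 22.5). For these 3 genes the stromal interval lay above the luminal one. Dut, which removes dUTP, went the other way, at 3.07-fold lower (2.65 to 3.56) in luminal barcodes and 2.24-fold lower (1.90 to 2.65) in stroma.

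Luminal Rrm2 differed in how its UMIs were spread. It was detected in 16.1% of control luminal barcodes and 16.4% of those labelled knockout, and in 3.12% and 3.14% after each barcode was thinned to 2000 UMIs. Each positive barcode held 2.93 UMIs of it in the control and 1.20 in the library labelled knockout. Mcm3 and Dut held 2.43 and 2.30 UMIs per positive control barcode and 1.17 and 1.19 in the other library, but for them the thinned shares also differed (6.58% and 2.35%, and 9.21% and 3.45%).

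All 6 chromatin and G1/S genes were at least 2-fold lower in luminal barcodes and in stroma. Uhrf1, which brings DNA methylation to new strands, was 25.6 and 6.05 CPM in luminal barcodes, 4.22-fold lower, and 16.5 and 2.54 CPM in stroma, 6.51-fold lower (3.51 to 13.7). The subunits of the histone chaperone CAF-1, Chaf1a and Chaf1b, were 4.58-fold and 4.48-fold lower in luminal barcodes. In stroma Chaf1a was 5.85-fold lower, and Chaf1b had 174 UMIs in the control and 1 in the library labelled knockout, a fold of 23.2 (4.11 to 923). E2f1, a transcription factor of S phase genes, was 5.88 and 0.240 CPM in luminal barcodes, on 55 and 4 UMIs, 24.5-fold lower (9.06 to 93.2). In stroma E2f1 was 11.05 and 1.78 CPM, 6.22-fold lower (2.98 to 15.6). The E cyclins Ccne1 and Ccne2, which activate Cdk2, were 5.03-fold and 3.12-fold lower in luminal barcodes and 3.01-fold and 2.17-fold lower in stroma.

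Set side by side, the luminal and stromal intervals of a member's fold overlapped for 26 of the 39. The luminal fold was the larger for 7 (Gins2, Orc6, Rpa2, Pola1, Fen1, Tipin and Dut) and the stromal fold for 6 (Mcm2, Mcm6, Rfc2, Rrm1, Rrm2 and Tyms). Both comparisons use the same 2 libraries, and the difference between them was not tested. How often such intervals part among all features was not counted, so the split is not shown to be particular to the members. Some of these genes already differed by cell type in the control, where Rrm2 was 3.41 times (2.88 to 4.04) and Tyms 2.07 times (1.80 to 2.37) as high in luminal as in stromal barcodes. Ccne1 was lower in luminal than in stromal control barcodes, at 0.361 times (0.240 to 0.524).

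Promoter sequence, which played no part in the choice of the members, was then read. RefSeq promoter windows (build GRCm38.p6, 250 bases before to 50 after each start) were matched by symbol for 32 of the 39 genes, in 37 windows. The E2F core, searched on both strands with overlaps allowed as TTCCCGC or TTCGCGC or TTGCCGC or TTGGCGC, was present in 25 of the 37 windows (67.6%) and in 9.57% of all 32851 windows of the table. CCAAT, the site of the factor NF-Y, was present in 21 of the 37 (56.8%) and in 37.4% of all windows. Member windows were also richer in G and C, with a median of 61.3% against 52.7%, and the part of base composition in these shares was not tested. A match describes letters in this window and is not a shown binding site. The following stretches of 120 bases end before the start site and show the core, in capitals, for 2 ring subunits, a polymerase and 2 chromatin genes that were at least 2-fold lower in both cell types, and for Rrm1, which was within 2-fold in luminal barcodes. They lie at chr8:75109329-75109448 (Mcm5, plus strand), chr1:128359706-128359825 (Mcm6, minus), chrX:93632216-93632335 (Pola1, minus), chr17:56040296-56040415 (Chaf1a, plus), chr17:56303217-56303336 (Uhrf1, plus) and chr7:102441575-102441694 (Rrm1, plus).
Mcm5: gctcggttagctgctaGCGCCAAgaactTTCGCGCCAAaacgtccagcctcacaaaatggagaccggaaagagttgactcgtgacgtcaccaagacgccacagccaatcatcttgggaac
Mcm6: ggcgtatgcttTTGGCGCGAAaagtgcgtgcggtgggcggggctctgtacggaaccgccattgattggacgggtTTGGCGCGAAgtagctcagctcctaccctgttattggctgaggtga
Pola1: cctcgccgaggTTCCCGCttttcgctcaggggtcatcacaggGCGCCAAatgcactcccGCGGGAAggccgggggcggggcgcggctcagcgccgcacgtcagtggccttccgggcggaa
Chaf1a: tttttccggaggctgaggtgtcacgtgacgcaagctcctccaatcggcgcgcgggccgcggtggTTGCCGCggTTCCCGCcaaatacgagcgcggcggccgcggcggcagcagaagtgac
Uhrf1: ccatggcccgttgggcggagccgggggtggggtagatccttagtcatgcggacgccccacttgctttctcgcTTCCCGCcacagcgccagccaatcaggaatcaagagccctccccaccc
Rrm1: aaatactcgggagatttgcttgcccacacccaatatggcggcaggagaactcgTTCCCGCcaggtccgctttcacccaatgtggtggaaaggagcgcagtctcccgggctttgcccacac

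The stretch of Mcm6 holds 4 matches in 2 pairs that overlap on opposite strands, and those of Mcm5 and Pola1 hold 3 each. Of the 22 genes with the core in a window, 20 were at least 2-fold lower in luminal barcodes and 18 in stroma, with median log2 ratios of -1.83 and -1.85. Of the 10 genes with a window and no core, 7 and 8 were, with medians of -1.38 and -1.57. E2f1 and Ccne1, with large folds, were among those 10, and Rrm1 and Pold3, with small luminal folds, were among the 22.

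Most control barcodes held some member UMI: without thinning, 94.2% of luminal and 93.5% of stromal barcodes had at least 1, against 87.2% and 61.5% in the library labelled knockout. To compare cells at equal depth, each barcode was thinned to 2000 UMIs and shallower ones were left out (12 and 47 luminal, 1 and 4 glandular, 26 and 109 stromal, 27 and 197 other barcodes, control first). At least 3 different members were detected in 98 of 608 control luminal barcodes, 16.1% (13.3 to 19.3), and in 36 of 1274 labelled knockout, 2.83% (1.99 to 3.89). In stroma they were 395 of 3195, 12.4% (11.2 to 13.6), and 20 of 940, 2.13% (1.30 to 3.27). Glands had 3 of 101, 2.97% (0.617 to 8.44), and 1 of 94, 1.06% (0.0269 to 5.79). Among other barcodes they were 81 of 307, 26.4% (21.5 to 31.7), and 36 of 207, 17.4% (12.5 to 23.3). No class here is known to lack all 39 transcripts, so no background share can be given. The luminal and stromal shares of the library labelled knockout lay within the glandular intervals. Without thinning the luminal shares were 71.3% and 53.2%, the glandular 55.9% and 34.7%, the stromal 62.7% and 10.1% and the other 48.8% and 14.6%. A count of members per barcode is a range and not a cell type.

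At 5 or more members the luminal counts were 44 (7.24%) and 3 (0.235%), and the stromal counts 168 (5.26%) and 2 (0.213%). Up to 13 members were found in 1 thinned control luminal barcode and up to 15 in stroma, against 6 in luminal and 6 in stromal barcodes of the library labelled knockout. In other barcodes the most were 14 and 12. Barcodes with at least 3 members held 62.8% of all thinned luminal member UMIs in the control and 16.5% in the library labelled knockout, and 52.1% and 12.7% in stroma.

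**Figure D4:**
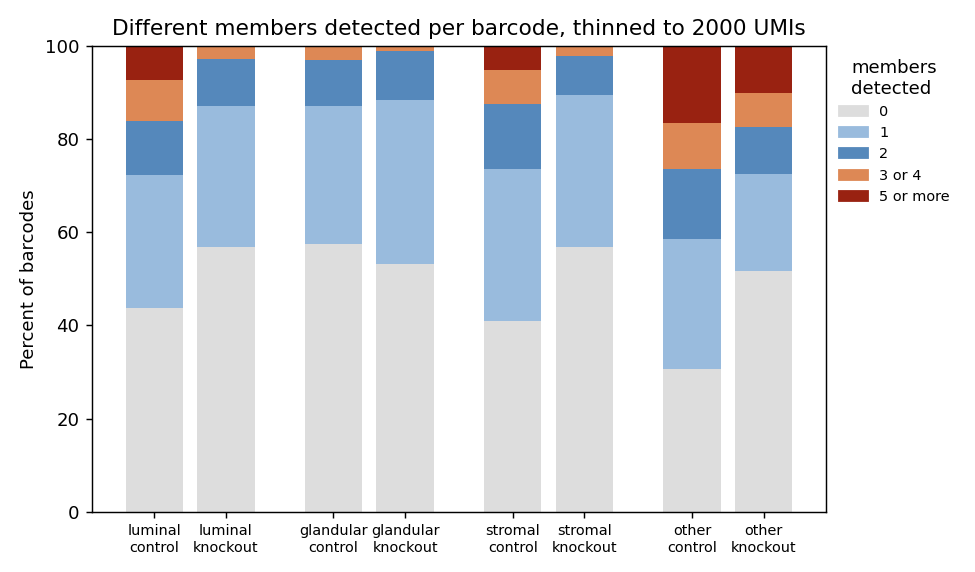
Percent of barcodes with 0, 1, 2, 3 or 4, and 5 or more of the 39 members detected after thinning to 2000 UMIs, by class and library (knockout is the library labelled so). Barcodes with 5 or more members make up 7.24% of control luminal and 5.26% of control stromal barcodes, 0.235% and 0.213% in the library labelled knockout, and 16.6% and 10.1% of other barcodes.

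A list of 30 mitosis genes, none of them a member, was used to sort the same thinned barcodes. Its UMIs come from the same barcodes and the same draw as those of the members, so the sorting is a description and no outside check. Control luminal barcodes with at least 3 mitosis UMIs, 13 of 608, held the members at 3346 CPM, and those with none held 592 CPM. The 4 luminal barcodes labelled knockout with at least 3 held 375 CPM on 3 member UMIs, and those with none held 312 CPM. Stroma was alike, with 3109 CPM in 46 control barcodes with at least 3 mitosis UMIs, 611 CPM in 9 labelled knockout, and 559 and 288 CPM in barcodes with none. With at least 1 mitosis UMI the counts were larger, and the member levels were 1421 CPM (89 control barcodes) and 267 CPM (129 labelled knockout) in luminal and 1414 CPM (371) and 358 CPM (88) in stromal barcodes. Member levels were therefore higher beside mitosis UMIs in the control, and luminal levels were not in the library labelled knockout. Barcodes without a mitosis UMI still differed between the libraries, 1.90-fold (1.70 to 2.12) in luminal and 1.95-fold (1.77 to 2.14) in stroma. The mitosis list holds genes that cells of any type express when they divide, but its luminal UMIs came from different genes in each library. Before thinning, 20 of 26 measured genes were at least 2-fold lower, among them Cdk1 (115 and 17 UMIs, control first) and Hmmr (38 and 3). Kif23 (27 and 89 UMIs), Anln (131 and 244) and Ckap2l (56 and 107) were not lower by CPM. Luminal barcodes sorted by this list may therefore not be alike between the libraries, and whether they were dividing was not tested.

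Other barcodes held replication transcripts at a high level in both libraries. Those with at least 3 mitosis UMIs held 3426 CPM in the control (61 barcodes) and 2859 CPM (32 barcodes) in the library labelled knockout, 1.20-fold lower (1.00 to 1.43). Of immune barcodes, 66 of 154 thinned control barcodes (42.9%) and 34 of 95 (35.8%) had at least 3 members.

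**Figure D5:**
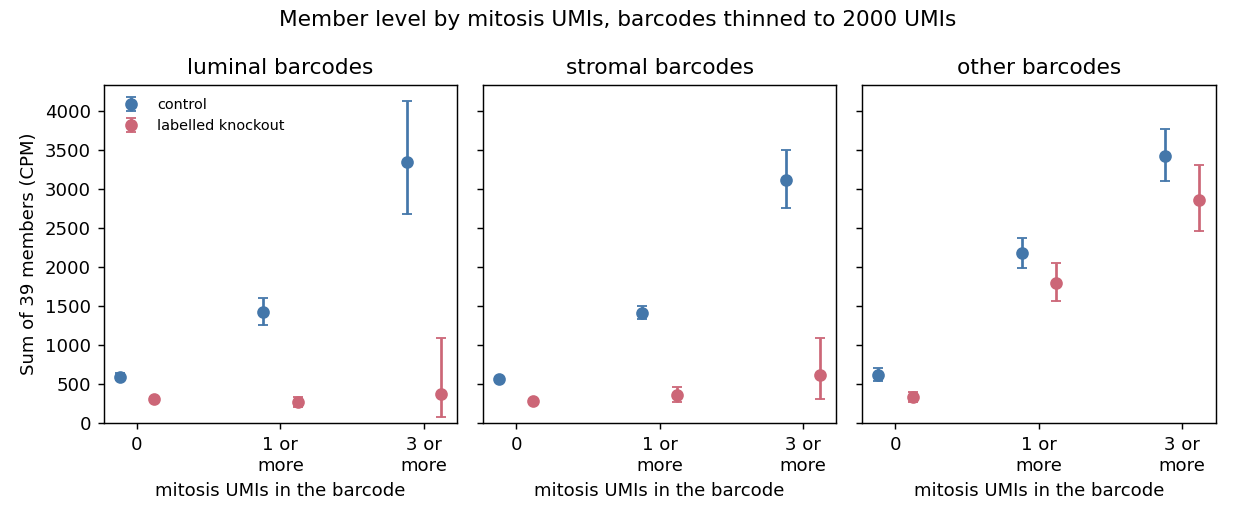
Summed level of the 39 members (CPM, with exact Poisson 95% intervals) in barcodes with 0, at least 1 and at least 3 UMIs of the 30 mitosis genes, thinned to 2000 UMIs. The control level reaches 3346, 3109 and 3426 CPM in luminal, stromal and other barcodes with at least 3, and the library labelled knockout reaches 375, 611 and 2859 CPM.

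In other barcodes 15 of the 34 measured members were at least 2-fold lower in the library labelled knockout and 0 higher, against 5.90% and 4.31% of 10414 features, with medians of -0.92 and 0.01, and the other 5 members were under 20 UMIs. The 15 were 7 of 12 measured helicase and origin genes, 5 of 14 fork genes, 1 of 4 nucleotide genes and 2 of 3 chromatin genes, among them Uhrf1 at 21.3 and 4.20 CPM and Pole at 22.2 and 4.20 CPM. Dut was 117 and 36.8 CPM, while E2f1 (15.4 and 15.8 CPM), Pold1 and Pold3 were level. Makeup and depth moved with this difference, and their part in it was not tested. Immune barcodes were 49.4% and 51.7%, endothelial 17.1% and 10.4%, muscle or pericyte 11.1% and 19.1% and the rest 22.5% and 18.8% of other barcodes. A dead cell removal step was used against blood cells per the labels, and its effect on these shares was not tested. Summed member levels were 1967 and 1188 CPM in immune, 857 and 312 CPM in endothelial and 454 and 210 CPM in muscle or pericyte barcodes. The rest held 787 and 259 CPM, 3.04-fold lower (2.31 to 4.06). Among other barcodes with 1000 to 3000 UMIs the summed levels were 729 and 699.9 CPM, a ratio of 0.960 (0.753 to 1.24).

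In glands 11 members had at least 20 UMIs over both libraries and the other 28 were under that, so differences of single genes were mostly not detectable at this depth. Rfc3 was lower, at 14.2 and 4.09 CPM on 18 and 3 UMIs, 3.47-fold lower (1.01 to 18.4), and Rrm1 was higher, at 7.11 and 16.4 CPM on 9 and 12 UMIs with an interval that included 1. The shares past 2-fold among all 8360 features were 5.67% lower and 4.51% higher, and the median log2 ratio was 0.02 over the 11 members and -0.03 over all features. Pcna (29.2 and 32.8 CPM), Rfc2 (26.9 and 27.3 CPM) and Dut (23.7 and 24.6 CPM) were level within their intervals. Ccne1 and Pole had no UMI in glands of either library.

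Within ranges of depth, chosen after seeing the data, the luminal and stromal members were lower in the library labelled knockout in each range that both libraries filled, by differing amounts. In luminal barcodes with 6000 to 12000 UMIs the summed level was 502 and 305 CPM, 1.65-fold lower (1.52 to 1.78). With 12000 to 24000 UMIs it was 1051 and 313 CPM, 3.36-fold lower (3.19 to 3.54), and with at least 24000 it was 769.9 and 296 CPM, 2.60-fold lower (2.43 to 2.79). In stroma it was 2.44-fold lower (1.91 to 3.10) at 1000 to 3000 UMIs, 1.74-fold lower (1.58 to 1.91) at 3000 to 6000 and 1.83-fold lower (1.58 to 2.13) at 6000 to 12000. The level in the library labelled knockout stayed between 296 and 313 CPM over the luminal ranges.

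The rest of the replication machinery, 45 genes that are no members, was lower to a smaller extent. The members and lists were chosen with earlier results of these data known, so this contrast cannot be told apart from that choice. In luminal barcodes 18 of 44 measured genes were at least 2-fold lower and 0 higher, with a median of -0.89, and in stroma 19 of 45 and 0, with a median of -0.71. Of all luminal features measured, 14.7% were that much lower and 5.64% higher, with a median of -0.16. Of all stromal features, 12.9% were lower and 5.48% higher, with a median of -0.05. The luminal genes farthest below the control were Asf1b, a histone chaperone, at 8.98 and 1.08 CPM, Ung, a uracil glycosylase, at 30.9 and 5.03 CPM, and Rfc5, a clamp loader subunit, at 23.5 and 4.43 CPM. In stroma they were Clspn, a checkpoint adaptor, with 218 UMIs in the control and 1 in the library labelled knockout, Gmnn, the inhibitor of Cdt1, with 234 and 2, and Dtl, which targets Cdt1 for destruction, with 699 and 15. The genes most above the control by their bound were Pole4 (66.3 and 79.0 CPM), Top1 and Dbf4 in luminal barcodes and Top1 (324 and 364 CPM), Orc2 and Rnaseh2c in stroma, all within 2-fold.

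Among 37 genes that govern G1 and the start of S phase, 12 of 36 were at least 2-fold lower and 1 higher in luminal barcodes, and 6 of 34 and 2 in stroma. The luminal share of lower genes was 33.3%, against 14.7% of all luminal features, of which 5.64% were higher. The stromal share of lower genes, 17.6%, was near the 12.9% of all stromal features, of which 5.48% were higher. Luminal Ccna2, the cyclin of S phase, was 4.38 and 0.300 CPM on 41 and 5 UMIs, and Klf15, a transcription factor, was 3.74 and 0.539 CPM. Cdkn1c, an inhibitor of cyclin-dependent kinases, was 8.75-fold lower, at 38.3 and 4.37 CPM. The inhibitors Cdkn2b (4.81 and 11.02 CPM, a ratio of 2.29, 1.65 to 3.25) and Cdkn1a (43.6 and 76.7 CPM, a ratio of 1.76, 1.57 to 1.97) were higher in the library labelled knockout, as was Myc at 5.77 and 10.2 CPM. In stroma the antiproliferative Btg1 was 124 and 279 CPM, a ratio of 2.24 (2.09 to 2.40), its relative Btg2 156 and 227 CPM and the kinase Cdk6 7.35 and 15.99 CPM, while Tfdp2, an E2F partner, Cdkn1c and Ccnd2, a D cyclin, were between 1.91-fold and 2.37-fold lower.

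The mitosis list followed the members in luminal barcodes, with 20 of 26 measured genes at least 2-fold lower, 0 higher and a median of -2.10. Of all luminal features measured, 14.7% were that much lower and 5.64% higher, with a median of -0.16. After thinning 6 of the mitosis genes were still measured, and 3 were lower, with a median of -0.74. Of all 9414 luminal features measured after thinning, 977 were that much lower. Aurkb, a mitotic kinase, had 21 UMIs in the control and 0 in the library labelled knockout, 12.5-fold lower with a floor of 3 counts in place of 0. The counting interval of its fold started at 9.29. Cdk1 was 12.3 and 1.02 CPM, and Hmmr was 4.06 and 0.180 CPM on 3 UMIs. Kif23, a kinesin of cell separation, was higher, at 2.89 and 5.33 CPM, and Anln and Ckap2l were level. In stroma 11 of 30 were lower and 0 higher, with a median of -0.81, against 12.9% and 5.48% of all stromal features and a median of -0.05. Top2a was 16.1 and 2.79 CPM and Kif11 3.76 and 0.762 CPM, Cdk1 was 2.49-fold lower, while Ccnb2 (2.91 and 5.08 CPM), Cenpa and Hmmr were not below the control.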

How the data were processed

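The deposited matrices hold raw UMI counts for each feature and barcode. Their headers name Cell Ranger 7.0.1. The submitters' processing notes list Seurat and mm39. The sources used here state no filter before deposit. Uteri were dissociated with trypsin and blood cells were taken out with a dead cell removal kit, per the labels' protocols.

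Barcodes under 500 genes or over 15% mitochondrial UMIs were dropped. The highest Scrublet scores (scanpy 1.11.5) were then removed at 0.8% per 1000 barcodes, which took 159 and 70, and left 4303 of 4627 control barcodes and 2881 of 3118 labelled knockout. The libraries held 44871170 and 23317904 UMIs. For each class of a library, a gene's summed UMIs were divided by the class total (CPM). Ratios carry exact conditional 95% intervals, levels exact Poisson intervals and shares exact binomial (Clopper-Pearson) intervals. With 1 library a group there was no test: a gene counts as lower or higher past a fold of 2, among features with at least 20 UMIs over both libraries. Thinning drew 2000 UMIs per barcode without replacement. The calculations were tested on simulated data. Of the other lists, named genes are the 3 farthest on each side by the interval bound nearest 1 in luminal and stromal barcodes, and any at least 2-fold higher. The members and lists were chosen with earlier results of these data known. A planned search of protein sequences was not made, and promoters are RefSeq's on GRCm38.p6, not the files' build. Alternatives covered filters, doublets, gate height, scaling, weighting and depth.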

Additional observations from a re-analysis of the deposited data

How the results depend on the processing

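Of the 41 alternatives for the summed log2 ratio and the 38 for the count of members at least 2-fold lower, none reversed a luminal, stromal or other difference, and the glandular ratio lay between -0.24 and 0.08. The summed ratio (luminal -1.40, stromal -1.34, other -0.92) was -1.22 in luminal, -1.16 in stromal and -0.69 in other barcodes thinned to 2000 UMIs. By means over barcodes it was -1.21, -1.24 and -0.74. Scaling by the median of ratios gave -1.24 in luminal barcodes. Gates at 20 per 10000 UMIs gave -1.23 in stroma and -1.07 in other barcodes, and gates at 5 gave -0.79 in other barcodes. Ranges of depth, chosen after seeing the data, gave -0.72 (6000 to 12000 UMIs) and -1.75 (12000 to 24000) in luminal, -0.80 (3000 to 6000) and -0.87 (6000 to 12000) in stromal, and -0.0595 (1000 to 3000) and -0.33 (3000 to 6000) in other barcodes.

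The count of members at least 2-fold lower was 18 of the 26 still measured in thinned luminal barcodes, against 977 of all 9414 features measured there. In other barcodes it was 6 of 22 when thinned, against 379 of all 6909 features, and 5 of 15 with at least 100 UMIs. In glands it was 3 with all deposited barcodes or without doublet removal, 0 with gates at 5, and 10 with at least 1 UMI, where few counts decide a fold. The median log2 ratio of the members lay between -1.73 and -1.52 in luminal, -1.69 and -1.53 in stromal and -0.93 and -0.69 in other barcodes over the alternatives tried. The causes of these shifts were not tested.

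The difference in the share of barcodes with at least 3 members (luminal -13.3, stromal -10.2, other -8.99 percentage points) was -7.001 and -5.05 in luminal and stromal barcodes at 5 members and -15.8 in stroma at 2. Thinned to 1000 UMIs it was -5.47 and -5.50, and thinned to 4000 it was -18.9 in luminal, -19.2 in stromal and -27.4 in other barcodes. In other barcodes it was -6.78 (-13.8 to 0.603) with all deposited barcodes and -6.57 (-15.5 to 2.88) with gates at 5 per 10000 UMIs. Those 2 intervals included no difference. Depth limits the glandular counts and the stromal members with under 10 UMIs in the library labelled knockout. No paired analysis was possible because each group is 1 library.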
